A study of Glycine max with 10 samples.

Results

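The transcripts described here were lower in the vegetative shoot apical meristem (SAM) of soybean than on the first short days (SDs), and still above their starting level on every later array. They were taken from the soybean probe sets of the Affymetrix Soybean GeneChip by a fixed set of conditions on their log2 levels. A probe set had to reach a level of at least 7 on some array, and its mean over the 4 arrays at 1 and 2 SD had to exceed its mean at 0 SD by at least 1, which is a doubling. All 8 arrays at 1, 2, 4 and 6 SD had to lie above both 0 SD arrays, and the mean at 4 SD had to stay at least 0.7 above 0 SD. Probe sets with NAC, MYB, WRKY or BZIP symbols, which denote transcription factor families, were left out. Of 37593 soybean probe sets, 23378 reached the brightness minimum, 335 of these met the early difference, 201 of these kept every later array above 0 SD, and 168 met the minimum at 4 SD. Leaving out 10 by symbol gave 158 members. The number rests on the starting arrays: without replicate 1 at 0 SD the conditions gave 300, the most allowed, with 105 of the 158 among them, and without replicate 2 they gave 292, with 151 of the 158. The conditions used every difference from 0 SD, so those differences are given as a description and were not tested.

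The plants were cultivar Bragg without any transgene. The 0 SD samples are vegetative SAMs from plants grown for 10 days in a glasshouse. The 1, 2, 4 and 6 SD samples are SAMs of plants that were then kept in a chamber at 24 °C with a 10 h day. Each time point has 2 replicates, each from its own pooled tissue collection and RNA extraction. The label of replicate 2 at 0 SD repeats the short-day treatment text of the other samples, but its title names a vegetative SAM. It was taken as 0 SD. At 6 SD the inflorescence meristem was collected together with the adjoining floral meristem. No plants were kept in the chamber under long days, so the short days, the move from glasshouse to chamber and plant age cannot be told apart in any difference from 0 SD. The labels do not give the time of day of dissection, and in pooled tissue fewer cells of a type and less RNA per cell cannot be told apart.

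The SAM is the group of dividing cells at the shoot tip that forms leaves while vegetative and flowers once floral induction has taken place. Soybean flowers in response to short days: leaves sense the day length and send a mobile signal to the apex, where floral meristem identity genes of the MADS-box family come on later. Sugars, abscisic acid (ABA), gibberellins, auxin and jasmonates all act in shoot apices, and their levels depend on enzymes of synthesis, storage and breakdown, several of which are among the 158 members.

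The arrays held meristem transcripts throughout. The KNOX homeobox meristem gene STM lay between 10.17 and 11.90 on all 10 arrays. The homeobox genes KNAT2 and KNAT4 lay between 7.10 and 9.46 and between 9.26 and 10.18. Of 3 further meristem markers found by symbol, H1 had a 0 SD mean of 9.79. The others, NARK (3.66) and CLV1A (5.41), were too dim to be tested. Leaf primordia were removed in dissection, yet the highest of 6 probe sets for chlorophyll-binding and Rubisco small subunit proteins (CAB3 and RBCS1) lay between 13.6 and 14.2 on every array, and which cells these transcripts came from was not tested. The lowest of the 6 lay between 4.80 and 5.39. The log2 of the summed level of the 6 ranged from 14.99 to 15.51 over the 10 arrays. The floral identity gene AP1 stood between 4.50 and 4.97 on the arrays at 0, 1 and 2 SD, at 8.33 and 10.17 at 4 SD, and at 11.95 and 12.60 at 6 SD. The related MADS-box gene FRUITFUL was at 5.90 and 6.17 at 0 SD and 6.19 and 6.20 at 1 SD, but at 6.97 and 7.59 by 2 SD, and SEP3 was at 3.97 and 3.99 at 0 SD and 4.42 and 4.61 by 2 SD. On the 1 SD arrays these floral genes were near their starting levels. That the members were higher there was fixed by their selection, so no order in time is read from it. Replicate 2 at 6 SD stands apart, with an interquartile range over soybean probe sets of 3.60 against 3.94 to 4.02 on the other 9 arrays, and the counts at 6 SD are given without it as well.

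Single members had 0 SD means from 4.01 to 12.23. Seen together, the members had a mean level at 0 SD of 6.92 in replicate 1 and 7.36 in replicate 2. At 1 SD the means were 9.05 and 9.35, and at 2 SD they were 9.08 and 8.74. They were lower at 4 SD, at 8.48 and 8.35, and again higher at 6 SD, at 9.45 and 8.80. All 8 short-day arrays lay above both 0 SD arrays, which the choice of members fixes. The order among the short-day arrays was not fixed by it in full: 1 and 2 SD were chosen to be high, 4 SD had only a minimum, and at 6 SD an array had only to exceed 0 SD.

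**Figure D1:**
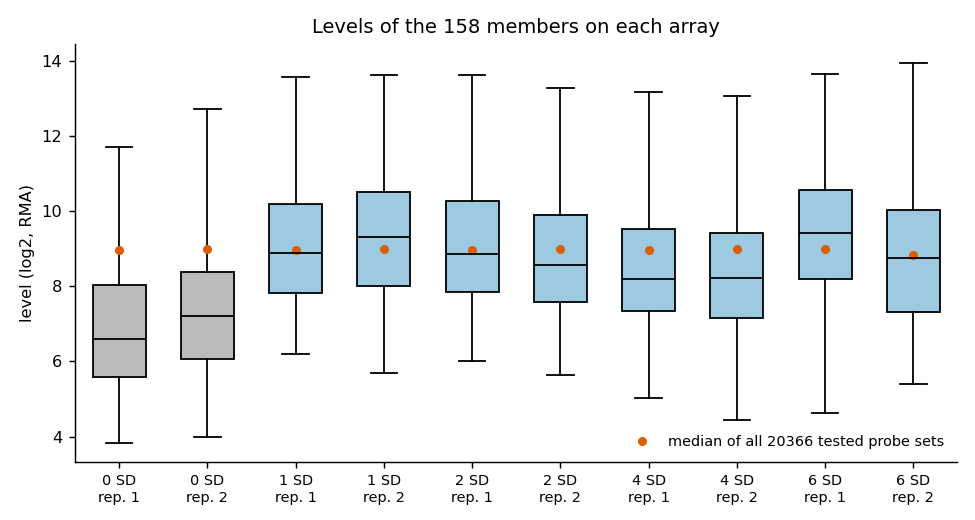
Level (log2 RMA value, y axis) of the 158 members on each of the 10 arrays (x axis, by short days and replicate). Boxes span the quartiles with the median as a line, whiskers reach the lowest and highest member, grey marks 0 SD and blue the short days, and orange points give the median of all 20366 tested probe sets. The members' boxes sit lowest at 0 SD, and lower at 4 SD than on the other short-day arrays, while the orange points stay near 9 on every array.

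The median member was 1.83 above 0 SD at 1 SD (3.55-fold), 1.59 above at 2 SD (3.00-fold), 1.16 above at 4 SD (2.23-fold) and 1.84 above at 6 SD (3.59-fold). Over all 20366 probe sets bright enough to be tested, the same medians were −0.04, −0.02, −0.02 and −0.13. A difference of at least 2, or 4-fold, was reached by 67 members on the first day, by 46 on the second, by 12 after 4 SD and by 64 after 6. The lowest of the 4 later means was the one at 4 SD in 115 of the 158 members, and the highest was that of 1 SD in 88 members, of 6 SD in 50, of 2 SD in 19 and of 4 SD in a single member. The count highest at 6 SD was 106 without replicate 2 at 6 SD and 41 without replicate 1. The count with its lowest mean at 4 SD was 79 without replicate 1 at 6 SD and 122 without replicate 2. The selection favoured high levels at 1 and 2 SD and set only lower limits at 4 and 6 SD. The share over all tested probe sets is not given here, so nothing is read from these counts of highest and lowest means.

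The mean at 4 SD was the lowest later mean in 51 of the 55 members that were at least 2 above 0 SD over the first 2 days, and in 64 of the other 103. All 55 had a 4 SD mean below their early mean, and in 38 both 4 SD arrays lay below all 4 early arrays. Of all 158, 64 showed that separation, and 3 the opposite; over all tested probe sets the shares were 10.0% and 11.9%. Since high values at 1 and 2 SD chose the members, nothing is read from that contrast. On the log2 scale the median member kept 69.6% of its early difference at 4 SD, with a range from 21.1% to 203%, and 98.6% at 6 SD, with a range from 28.6% to 365%.

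At 6 SD the members formed unequal groups by position. In 27 members both 6 SD arrays lay above all 4 arrays of 1 and 2 SD, in 10 both lay below, and 121 overlapped. Over all tested probe sets, 10.7% lay above and 19.9% below. These counts rest on both 6 SD arrays: replicate 1 alone was above all 4 early arrays in 80 members and below them in 12, and replicate 2 alone was above in 34 and below in 65. The grouping itself fixes whether 6 SD lies above or below the early days, so the medians only describe the groups. The 27 had a small early difference (median 1.39) that was as large at 4 SD (median 1.44) and larger at 6 SD (median 2.48). The 10 had a large early difference (median 3.11), which was 1.30 at 4 SD and 1.64 at 6 SD. Of the 27, 6 had an annotated role (NCED, SABATH1, ILL6, both probe sets of a class 3 lipase, and 1 of the 2 probe sets of GA2OX8), and 21 had none.

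**Figure D2:**
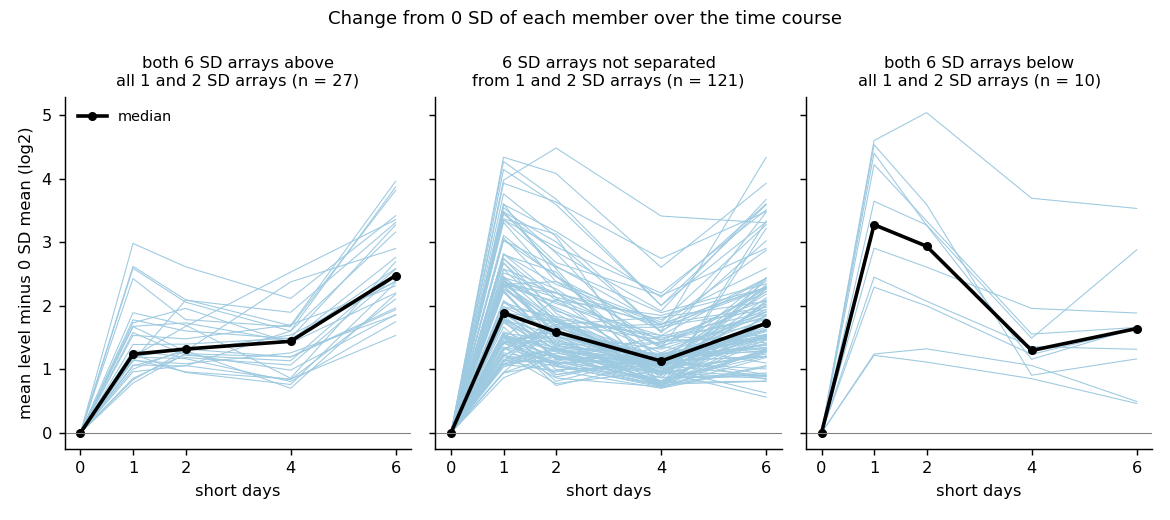
Mean level minus the 0 SD mean (log2, y axis) against short days (x axis), with a thin line for each member and a black line for the median, in panels by the place of the 6 SD arrays relative to the 4 arrays of 1 and 2 SD. The median of the 27 members on the left is highest at 6 SD, that of the 121 in the middle dips at 4 SD, and that of the 10 on the right is lower at 4 and 6 SD than before. The order of 6 SD and the early days in the left and right panels is fixed by the grouping.

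Starch breakdown was represented by beta-amylases. These enzymes cut maltose from starch chains, and 5 of their 7 probe sets on the array were members. BMY2 (Gma.16670.1.S1_at) was at 5.13 and 5.30 on the 0 SD arrays, 9.12 and 9.86 at 1 SD, 9.54 and 8.25 at 2 SD, 7.38 and 7.06 at 4 SD, and 9.79 and 7.83 at 6 SD. It was low at 0 SD, high on the 4 early arrays, lower on both 4 SD arrays, and high again in replicate 1 at 6 SD. The early difference was 3.98, or 15.8-fold on the RMA scale, which compresses low levels. Its second probe set (GmaAffx.89961.1.S1_s_at) differed by 3.87. The third (GmaAffx.89961.1.S1_at), whose highest array was 6.79, differed by 2.05. It was no member because it was too dim and because its difference at 4 SD, 0.52, was under the minimum there.

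The second beta-amylase gene, LOC547684, carries the older name BMY1 and was already abundant at 0 SD. Its brightest probe set (Gma.11265.2.S1_at) stood at 10.34 and 10.83 at 0 SD, 12.51 and 12.63 at 1 SD, 12.37 and 11.98 at 2 SD, 11.81 and 11.53 at 4 SD, and 12.99 and 11.98 at 6 SD. Its 3 probe sets, all members, had early differences between 1.79 and 1.93, about 3.5-fold to 3.8-fold. The third beta-amylase locus, LOC547931 (Gma.595.1.S1_at), for which BMY1 is also an older name, did not share the pattern. It was at 11.09 and 10.92 at 0 SD, 10.54 and 10.70 at 1 SD, and 10.29 and 10.30 at 2 SD, so that all 4 early arrays lay below both 0 SD arrays. In the wider list of carbohydrate and starch genes, chosen by symbol, 13 of 35 probe sets were bright enough to be tested, and the 5 beta-amylase probe sets were the only members. The median early difference of the 13 was 0.06, against −0.03 over all tested probe sets.

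Gibberellin 2-oxidases inactivate gibberellins, and all 4 of their probe sets on the array were higher on the first 2 days. Those of GA2OX8 were members. GA2OX8 (GmaAffx.87970.1.A1_at) was at 6.41 and 7.09 at 0 SD, 9.69 and 9.78 at 1 SD, 9.67 and 9.06 at 2 SD, 9.23 and 8.50 at 4 SD, and 10.35 and 9.99 at 6 SD. Both 6 SD arrays were above every other array, and the second probe set (GmaAffx.47138.1.A1_at) had early and 6 SD differences of 1.64 and 2.00. GA2OX6 had early differences of 2.17 and 2.22 in its 2 probe sets, close to those of GA2OX8, but was no member because replicate 2 at 6 SD lay below 0 SD. In GmaAffx.45334.1.S1_at it was at 7.20 and 7.44 at 0 SD, 9.17 in replicate 1 at 6 SD and 5.78 in replicate 2. The low mean of GA2OX6 at 6 SD thus rested on a single array, the library with the narrower spread.

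Jasmonate signalling was represented by a repressor and by lipases. JAZ1 (LOC100778559), a jasmonate ZIM-domain protein that holds jasmonate-responsive transcription factors inactive, had 3 member probe sets out of 4 on the array. The brightest (Gma.15155.1.S1_a_at) was at 9.90 and 10.07 at 0 SD, 11.15 and 11.66 at 1 SD, 11.66 and 11.61 at 2 SD, 11.52 and 10.84 at 4 SD, and 11.63 and 11.08 at 6 SD. The differences from 0 SD were 1.42 on the first day, 1.65 on the second, 1.197 after 4 and 1.38 after 6. The other 2 member probe sets had early differences of 1.46 and 1.49, and the fourth probe set, with a mean of 3.89 at 0 SD, differed by 0.32.

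A class 3 lipase annotated as similar to Arabidopsis DEFECTIVE IN ANTHER DEHISCENCE1, which releases the fatty acid for jasmonate synthesis in anthers, was higher at each time point than at the one before. Gma.12487.1.S1_at was at 6.20 and 5.89 at 0 SD, 7.23 and 7.26 at 1 SD, 7.55 and 7.88 at 2 SD, 8.20 and 8.95 at 4 SD, and 9.34 and 9.46 at 6 SD. No later time point overlapped an earlier one. The partner probe set with the same annotation, Gma.12487.2.S1_at, was 1.17 above 0 SD over the first 2 days, 2.38 above at 4 SD and 2.90 above at 6 SD. These 2 probe sets and that of SABATH1 were the 3 members whose 4 SD arrays lay above all early arrays.

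SABATH1 (GmaAffx.47649.1.S1_at) belongs to a family that methylates the carboxyl groups of small acids, plant hormones among them, with S-adenosyl-methionine as donor. It was at 6.30 and 7.21 at 0 SD, 7.84 and 7.81 at 1 SD, 7.86 and 7.76 at 2 SD, 7.91 and 8.81 at 4 SD, and 10.46 and 10.80 at 6 SD. The 4 early arrays were almost level, and the early difference of 1.06 was among the smallest of the set. At 6 SD it was 2.81 above its own early mean, the highest such value of the 158 members.

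ABA and auxin were each represented by a probe set annotated as an enzyme of hormone synthesis or release. The 9-cis-epoxycarotenoid dioxygenase (NCED, Gma.12393.1.S1_a_at), which makes the rate-limiting cut in ABA synthesis, was at 7.15 and 6.79 at 0 SD, 8.49 and 8.23 at 1 SD, 8.15 and 8.58 at 2 SD, 8.15 and 8.77 at 4 SD, and 10.47 and 10.02 at 6 SD. It held a level from 1 to 4 SD, with differences from 0 SD of 1.39, 1.40 and 1.49, and stood at 3.28 at 6 SD. The putative IAA-amino acid hydrolase 6 (ILL6, Gma.3543.1.S1_at) is known here by annotation only. The paper proposes that it may free indole-3-acetic acid from amino acid conjugates, which was not tested. It was at 8.24 and 8.63 at 0 SD, 9.91 and 10.43 at 1 SD, 10.47 and 10.32 at 2 SD, 10.00 and 9.70 at 4 SD, and 10.60 and 10.68 at 6 SD. Both 6 SD arrays of ILL6 were its highest, by a small margin.

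ERD15, GLYI-17 and SDP1-3 each had their lowest later mean at 4 SD. ERD15 (GmaAffx.92973.1.S1_s_at), named after the Arabidopsis gene EARLY RESPONSIVE TO DEHYDRATION 15, was at 9.40 and 10.51 at 0 SD, 11.75 and 11.94 at 1 SD, 11.46 and 11.05 at 2 SD, 11.30 and 10.72 at 4 SD, and 11.79 and 10.93 at 6 SD. The 0 SD replicates differed by more than 1, and the lowest later array stood only a little above the higher of them. A second probe set of ERD15 (Gma.7482.1.S1_at) had an early difference of 1.45 but was no member, since replicate 2 at 0 SD (11.90) lay above replicate 2 at 4 SD (11.61).

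Glyoxalase I detoxifies methylglyoxal, a by-product of sugar breakdown. GLYI-17 (Gma.7771.1.S1_at) was at 8.63 and 8.21 at 0 SD, 10.19 and 10.82 at 1 SD, 10.28 and 9.56 at 2 SD, 9.46 and 8.89 at 4 SD, and 10.27 and 10.04 at 6 SD. It was the only member among 13 glyoxalase probe sets. The 8 of these that were bright enough to be tested had a median early difference of −0.03, the same as over all tested probe sets. SDP1-3 (GmaAffx.2613.1.S1_at), named after the Arabidopsis triacylglycerol lipase SUGAR-DEPENDENT1, was at 7.89 and 8.85 at 0 SD and 10.12 and 10.37 at 1 SD. It was 1.74 above 0 SD over the first 2 days and 1.55 above at 6 SD.

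**Figure D3:**
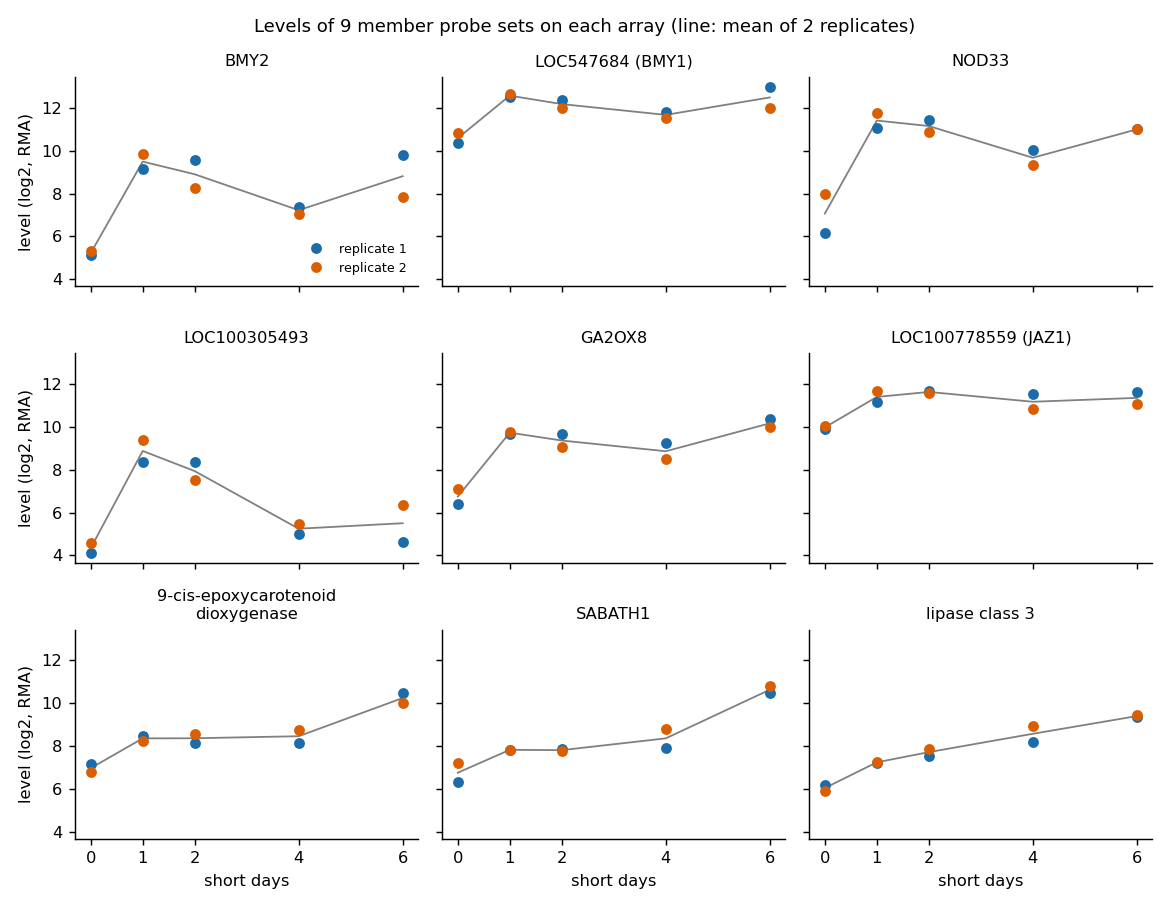
Level (log2 RMA value, y axis) against short days (x axis) of 9 member probe sets, with a point for each array (blue for replicate 1, orange for replicate 2) and a grey line through the means of the 2 replicates. BMY2 and NOD33 dip at 4 SD, LOC100305493 is 1.16 above 0 SD at 6 SD, and NCED, SABATH1 and the lipase are highest at 6 SD.

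Several of the largest early differences came from genes known here by a name or locus number only. LOC100800709 (Gma.17890.1.S1_at) had the largest, 4.82 or 28.3-fold. It was at 5.84 and 6.01 at 0 SD, 10.27 and 10.79 at 1 SD, 10.83 and 11.10 at 2 SD, 10.31 and 8.93 at 4 SD, and 10.14 and 8.78 at 6 SD. The 4 early arrays were within 1 unit of each other, while the 4 SD and the 6 SD replicates each differed by over 1. LOC100306332 (Gma.10342.1.S1_at) came next at 4.23, from 6.94 and 6.81 at 0 SD to 11.45 and 11.28 at 2 SD.

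NOD33 (Gma.1248.1.S1_s_at) was at 6.15 and 7.98 at 0 SD, 11.07 and 11.75 at 1 SD, 11.45 and 10.85 at 2 SD, 10.01 and 9.33 at 4 SD, and 11.00 and 10.99 at 6 SD. Its 0 SD replicates were 1.82 apart, and even the higher of them was below the lowest later array. PDH (Gma.4161.2.S1_at) was 2.65 above 0 SD over the first 2 days and 0.75 above at 4 SD, close to the minimum set there. Its other 2 probe sets on the array were dimmer and were no members, with early differences of 1.24 and 0.44. These 2 differed from 0 SD by −0.11 and −0.03 at 4 SD and by 0.37 and 0.04 at 6 SD, so they did not show a lasting difference of this size.

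LOC100305493 had the lowest 6 SD level relative to its early mean. GmaAffx.92834.1.S1_at was at 4.12 and 4.57 at 0 SD, 8.36 and 9.40 at 1 SD, 8.36 and 7.52 at 2 SD, 5.02 and 5.48 at 4 SD, and 4.64 and 6.37 at 6 SD. At 6 SD replicate 1 was within 0.1 of the higher 0 SD array, so that its place among lasting differences rested on that narrow margin. Its second member probe set (GmaAffx.92834.1.S1_x_at) lay at 5.77 and 7.27 at 6 SD. With LOC100305943 (GmaAffx.68386.1.S1_at), 2.12 below its early mean at 6 SD, these 2 were the 3 members lowest at 6 SD relative to their early mean.

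Of the remaining members with the 12 largest early differences, LOC100804761 (Gma.10907.2.S1_s_at) was the brightest, with an early difference of 3.78 and levels of 7.64 and 9.61 at 0 SD and 12.53 and 12.58 at 1 SD. LOC547648 (Gma.9828.1.S1_at) differed by 3.46, LOC100306340 (Gma.7871.1.S1_at) by 3.43 and LOC100306576 (Gma.7580.1.S1_at) by 3.38. In 10 genes more than 1 probe set was a member. All members met the same conditions, so agreement among the member probe sets of a gene was largely fixed by the selection. LOC100785506 had all 4 of its probe sets among the members, with early differences between 2.21 and 2.43 and 0 SD means from 5.67 to 9.55.

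Members with NAC as an older name only were kept, because the family was left out by current symbol. LOC100170714, also NAC21 (Gma.4774.1.S1_at), had an early difference of 3.25, from 6.36 and 7.28 at 0 SD to 10.00 and 10.39 at 1 SD. The 3 other probe sets of that gene on the array had early differences between 0.06 and 0.22, so its probe sets did not agree. LOC100814504, also NAC69 (Gma.5519.1.S1_at), differed by 1.80 and was at 8.05 and 6.09 at 6 SD, the second of these 0.12 above the higher 0 SD array. The 10 probe sets left out by symbol carried NAC, WRKY or BZIP symbols and had early differences from 1.53 to 3.76.

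Among the members, 80 had a gene symbol and 78 had none. In the 79 matched to a single gene there were 65 distinct genes. By name, older name or the annotation of the study's supplementary list, 23 were named and 135 were not. Probe sets whose suffix marks possible cross-hybridization to other transcripts (_s) made up 16.5% of the members and 8.91% of soybean probe sets, so a level may combine related genes.

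Gene lists were matched by symbol or older name. Of 37593 soybean probe sets, 1757 had a symbol other than a locus number. Among the members 10 had such a symbol and 8 more had an older name. Most members could thus match no list, and absence from a list is not read as a result. No member came from the lists of auxin, clock and light, heat shock, photosynthesis, cell wall, phenylpropanoid, protein kinase or other transcription factor symbols. ILL6 and NCED are annotated without a symbol and so stand outside the lists. These lists held between 11 and 36 tested probe sets each, with median early differences from −0.18 to 0.23. The gibberellin, cytokinin, ethylene, jasmonate and brassinosteroid list gave 6 members among 117 probe sets, of which 79 were tested, and the lists of amino acid genes and of ABA, dehydration and cold genes gave 1 each. Between 4 and 6 SD limma called 2 probe sets higher in the hormone list (SABATH1 among them), 2 of 33 in the phenylpropanoid list and 2 of 36 in the list of other transcription factors, against 0.412% of all tested probe sets. An early difference of at least 1 was found in 1.43% of all tested probe sets, and 1 of at most −1 in 0.265%. Among the lists without a member, the early difference was at least 1 in 3 of 24 tested clock and light probe sets. The heat shock list had 1 of 30 and the list of other transcription factors 1 of 36. A difference of at most −1 was found in 1 probe set each of the clock and light, heat shock, cell wall and other transcription factor lists.

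At the threshold itself the members graded into non-members. The 3 just inside had early differences of 1.01 (GmaAffx.17961.1.A1_at), 1.01 (Gma.3314.2.S1_x_at) and 1.01 (GmaAffx.60873.1.S1_at), and the 3 just outside, all 0.99, were GmaAffx.84298.1.S1_at, LOC100800666 (GmaAffx.91328.1.S1_at) and LOC100127418 (Gma.6573.1.S1_at). The gap from the highest 0 SD array to the lowest later array had a median of 0.54, ranged from 0.0013 to 2.77, and was at least 1 in 22 members. The 33 probe sets that met the other conditions but not the minimum at 4 SD had a median early difference of 1.32, which was 0.52 at 4 SD and 1.21 at 6 SD.

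Whether the first day's level went on changing on the second was asked by setting 2 SD against 1 SD, a difference the selection did not use. No member and no other probe set passed, with 0% of 20366 called by limma at an adjusted p under 0.05. At an unadjusted p under 0.05 limma gave 165 probe sets, 6 of them members, 3 higher and 3 lower at 2 SD. The median difference over 145 tested members was −0.32, against 0.01 over all tested probe sets, and 114 of the 145 were lower at 2 SD. Both 2 SD arrays lay below both 1 SD arrays in 57 of 158 members and above them in 17, against 13.2% and 15.9% of all tested probe sets. Leaving out replicate 2 at 2 SD raised the number higher at 2 SD from 31 of 145 to 47 of 143.

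The member with the largest positive difference was LOC100780588 (GmaAffx.27632.1.A1_at), which has no protein match in the study's annotation. It was at 5.58 and 5.42 at 0 SD, 6.26 and 7.01 at 1 SD, 7.54 and 7.64 at 2 SD, 7.15 and 7.65 at 4 SD, and 8.88 and 8.74 at 6 SD. The difference from 1 to 2 SD was 0.96 (limma, adjusted p = 1.00) and that from 4 to 6 SD was 1.42 ± 0.25 (SE, limma adjusted p = 0.0617), and neither passed.

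The second comparison asked whether the members changed between 4 SD, when AP1 had come on, and 6 SD, when floral meristems were present. The selection did not use this difference itself, but it set a minimum at 4 SD and asked both 6 SD arrays to exceed both 0 SD arrays. Probe sets that fell below 0 SD by 6 SD were thereby left out. The counts by direction are thus not free of the selection, and all tested probe sets, which met no such condition, are an unlike background. The level was significantly higher at 6 SD in 3 of 145 tested members and lower in 0, where limma called 0.491% of all tested probe sets, 0.412% higher and 0.0786% lower. For lower levels, 1 member had an unadjusted p under 0.05, and for higher levels 55 had, out of 2159 and 1195 probe sets. The member median was 0.61 and the range −0.39 to 2.74, against a median of −0.11 over all tested probe sets. The mean was higher at 6 SD in 133 of the 145 members, compared with 34.8% of all tested probe sets. Both 6 SD arrays exceeded both 4 SD arrays in 76 of the 158 members and lay below them in 2, where 14.4% and 34.5% of all tested probe sets did so. Replicate 1 alone exceeded both 4 SD arrays in 143 and was below in 6, and replicate 2 alone in 82 and 47.

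The 3 that passed were LOC100306340, NCED and SABATH1. LOC100306340 (Gma.7871.1.S1_at) was at 4.89 and 4.64 at 0 SD, 8.12 and 8.94 at 1 SD, 8.37 and 7.34 at 2 SD, 5.57 and 5.40 at 4 SD, and 8.32 and 7.88 at 6 SD. It was 0.72 above 0 SD at 4 SD and back within the range of the early arrays at 6 SD, a step of 2.61 ± 0.37 (SE, n = 2 a group, limma adjusted p = 0.0411) or 6.12-fold. NCED stepped up by 1.78 ± 0.27 (limma adjusted p = 0.0428, 3.44-fold) and SABATH1 by 2.27 ± 0.34 (limma adjusted p = 0.0428, 4.83-fold). These last had no dip at 4 SD, and the same statistical call thus came from different profiles. Without replicate 2 at 6 SD the limma adjusted p was 0.143 for LOC100306340, 0.138 for NCED and 0.193 for SABATH1.

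The next members lay just past the threshold, at limma adjusted p of 0.0522 for Gma.11026.2.S1_s_at (1.84) and 0.0564 for Gma.5816.1.S1_at (1.76), both without a symbol. Among other named members, the steps of GA2OX8 (1.30, adjusted p = 0.144), BMY2 (1.59, adjusted p = 0.278), NOD33 (1.32, adjusted p = 0.289) and ILL6 (0.79, adjusted p = 0.171) did not pass in the limma fit. The GA2OX6 steps of −1.46 and −1.47 did not pass either (adjusted p of 0.414 and 0.389 by limma), and whether they differed from those of GA2OX8 was not tested.

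**Figure D4:**
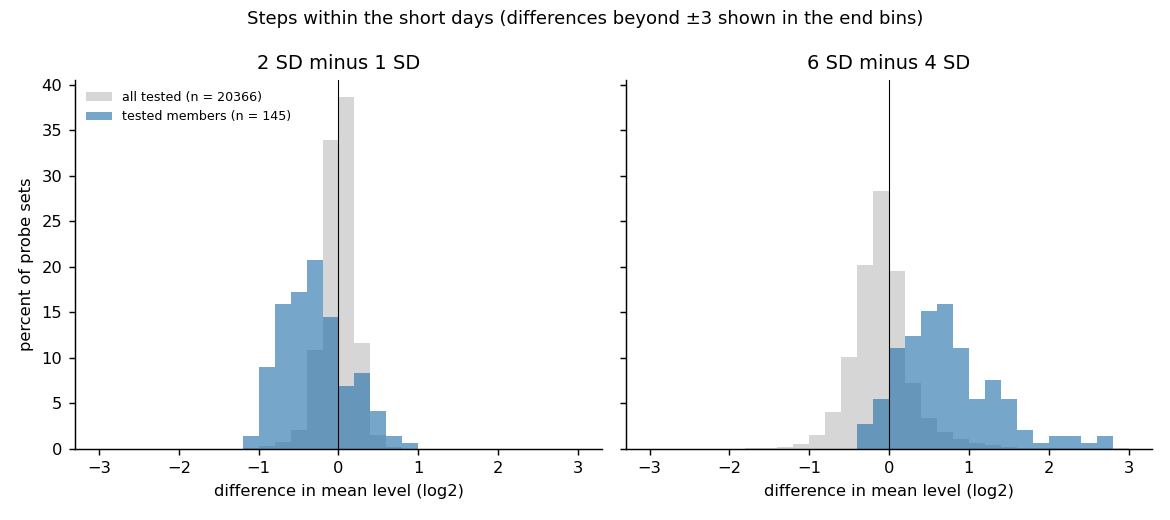
Percent of probe sets (y axis) by difference in mean level (log2, x axis) for 2 SD minus 1 SD and 6 SD minus 4 SD, with all 20366 tested probe sets in grey and the 145 tested members in blue. The members lie mostly left of 0 in the first step (median −0.32) and mostly right of it in the second (median 0.61).

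Replicates of the members differed more than those of other probe sets, and in a shared direction. The median residual SD was 0.46 in members and 0.18 over all tested probe sets. Replicate 2 was the higher in 126 of 158 members at 0 SD and 135 at 1 SD, but in 42 at 2 SD, 55 at 4 SD and 28 at 6 SD, where the median gap was −0.68. Over all tested probe sets the share with replicate 2 higher ranged from 32% at 6 SD to 56% at 2 SD. Members therefore moved together between replicates of a time point, and their count in a direction is not a count of independent results. Without replicate 1 at 6 SD, 85 of 138 tested members were higher after 6 SD than after 4, and without replicate 2, 138 of 143 were. The number of members called was 0 without replicate 2 at 6 SD, without replicate 1 at 4 SD, or without either replicate at 1 SD, 1 without either replicate at 2 SD, and 13 without replicate 1 at 6 SD.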

How the data were processed

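Total RNA (3 µg an array) from dissected SAMs was hybridized to 10 Affymetrix arrays. The deposited values are log2 expression levels that the authors made by robust multiarray averaging (RMA) in AffylmGUI, a method that normalizes all arrays together and compresses low levels. Versions are not given in the sources used here. Scanner files were not used here, so background and detection could not be set again. Precision is limited by the number of arrays.

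Members were found among 37593 soybean probe sets of 37746 entries. They, the gene lists (by symbol) and the tests were chosen with earlier results of these data known. Members named in the text are those with a symbol or annotation, the 12 largest early differences, the 3 nearest the threshold on each side, the largest tested changes, and the extremes at 6 SD. Symbols came from the platform annotation, updated through RefSeq (Glycine_max_v4.0), and promoter motifs were not searched, as no sequences were at hand.

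Time-point means were fitted with limma 3.58.1 in R 4.3.3 over all 10 arrays, with 5 residual degrees of freedom. Probe sets above the array median on at least 2 arrays (20366, with 145 members) were tested, with Benjamini-Hochberg adjustment over all of them and a threshold of 0.05. A member can pass that filter through its short-day arrays alone, and 13 did not pass. The fit was tested on simulated data with independent noise, so it was not tested for deviations that probe sets share. Alternatives changed the filter, normalization, prior, a replicate block, the rule's limits and the arrays used.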

Additional observations from a re-analysis of the deposited data

How the results depend on the processing

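The number of members lay between 110 and 197 under other limits of the rule and other normalizations, and between 155 and 300 when 1 array was left out. It was 300, the most the rule allows, without replicate 1 at 0 SD, with 105 of the 158 kept, and 292 without replicate 2 at 0 SD, with 151 kept. The count of probe sets called between 6 and 4 SD (100) was 202 without a filter, 199 with a filter at the 25th percentile, 174 with a common median and 272 with the replicate block, and ranged from 0 to 2107 when 1 array was left out. Members called (3) were 5 with the filter at the 25th percentile, 9 with a common median, 5 with an intensity trend and robust prior and 8 with the replicate block, and ranged from 0 to 13 when 1 array was left out. No member was called lower in any of these fits, and no probe set was called between 2 and 1 SD in any. Same-numbered deviations correlated positively among 0, 2, 4 and 6 SD (0.19 to 0.62, with 0.35 for 4 and 6 SD) and negatively between 1 SD and each of these (−0.37 to −0.07), and no label ties the numbers to a shared batch, so the block was not used for the main calls. LOC100780588 passed between 6 and 4 SD with quantile normalization (adjusted p = 0.0495), a common median (0.0429), the replicate block (0.0421) and without replicate 1 at 6 SD (0.0449), all by limma. The direction counts, the counts at 6 SD, the count with the lowest mean at 4 SD and the member medians were recomputed with alternatives chosen after seeing the data. Median differences from 0 SD stayed between 0.97 and 1.37 at 4 SD and between 1.44 and 2.20 at 6 SD. The causes were not tested.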
